A study of Mus musculus with 4 samples.

Results

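The BCL2 family decides whether a cell passes the mitochondrial checkpoint of programmed death. Described here are 9 of 10 named members of that family, out of 19297 genes measured in the spleens of 2 wild type and 2 leukaemic mice. The 10 were taken by gene symbol: the pro-survival genes Bcl2, Bcl2l1 and Mcl1, the pore-forming genes Bax and Bak1, and the BH3-only genes Bcl2l11, Bbc3, Pmaip1, Bid and Bmf. Each of the 9 had 1 probe set with that symbol alone, and Bax was not analysed here. The rule that took them reads symbols and no measured value, though the family was proposed with earlier results of these data known. All 4 mice were of strain 129Sv and were RBP-J flox/flox, so the controls carry the floxed alleles too. Wild type mice were Ren1d+/+ and were 80 and 81 days old; their spleens weighed 0.12 g and 0.16 g. Leukaemic mice were Ren1dcre/cre, with cre recombinase at both copies of a renin gene. Leukaemic replicate 1 was 107 days old with a spleen of 0.7 g, and leukaemic replicate 2, the only male, was 93 days old with a spleen of 0.47 g. Cre acts in cells that have used the renin gene, and no group carried cre without floxed RBP-J. Cre, the changed Ren1d copies, any loss of RBP-J, age, spleen weight and disease therefore cannot be told apart here. Sex cannot be separated from the single male either.

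Pro-survival BCL2 proteins hold the pore-formers BAX and BAK in check on the mitochondrial outer membrane. BH3-only proteins sense stress or loss of growth signals and bind the pro-survival proteins, which frees the pore-formers to release cytochrome c and start the caspases. In B cell development Bcl2 is known to be low in pre-B cells, a kind of precursor B cell, and high in mature B cells. Mature T cells also use it.

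Whole spleen was measured, so fewer cells of a type and less RNA per cell cannot be told apart. Genes of precursor B cells marked the leukaemic spleens: 7 of 9 measured were called higher (limma adjusted p under 0.05), against 1.43% of all genes. The mean log2 level of the 9 was 7.57 to 7.74 in wild type and 10.51 to 10.77 in leukaemic spleen. Dntt and Il7r were not called (limma adjusted p = 0.39 and 0.18). Dntt read 6.51 and 8.05 in leukaemic replicates 1 and 2, against 6.46 and 6.54 in the wild type mice. The B cell gene Cd79a, 1 of the 6 measured mature B cell markers, read 12.28 to 12.54 on all 4 arrays. Its difference was 0.08, and the other 5 markers had differences below 0. Marker means of mature B cells (6 genes) were 11.55 to 11.84 in wild type and 10.41 to 10.83 in leukaemic spleen, and those of T cells (7 genes) were 10.12 to 10.54 and 8.28 to 9.16. Wild type replicate 2 stood apart by RNA of exocrine pancreas: 8 of its marker genes averaged 11.90 there against 6.70 to 6.81 on the other arrays.

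None of the 9 members was called by the test used across all genes (limma with Benjamini-Hochberg adjustment over 19297 genes, threshold 0.05). That test called 2.46% of genes, 1.43% higher and 1.03% lower. At an unadjusted p under 0.05 there were 2 members, Bcl2 and Mcl1, or 22.2%, a share near the 20.7% of all genes. Arrays of the groups did not overlap for 3 of 9 members, or 33.3%, against 49.2% of all genes. Bcl2 and Mcl1 were lower in both leukaemic spleens (all genes, 26.2%), and Bcl2l11 was higher in both (all genes, 23.0%). No member reached a 2-fold difference: estimates ran from -0.70 to 0.30 on the log2 scale. In simulated data this fit called 0% of genes changed by 0.5 log2 and 36% of those changed by 1. A member without a call may therefore still differ. The simulation gave 126 calls against 475 in these data, so its shares may not hold here. With 2 against 2 mice, the smallest two-sided p that an exact permutation of the labels can give is 0.333, so p-values below come from the limma fit.

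**Figure D1:**
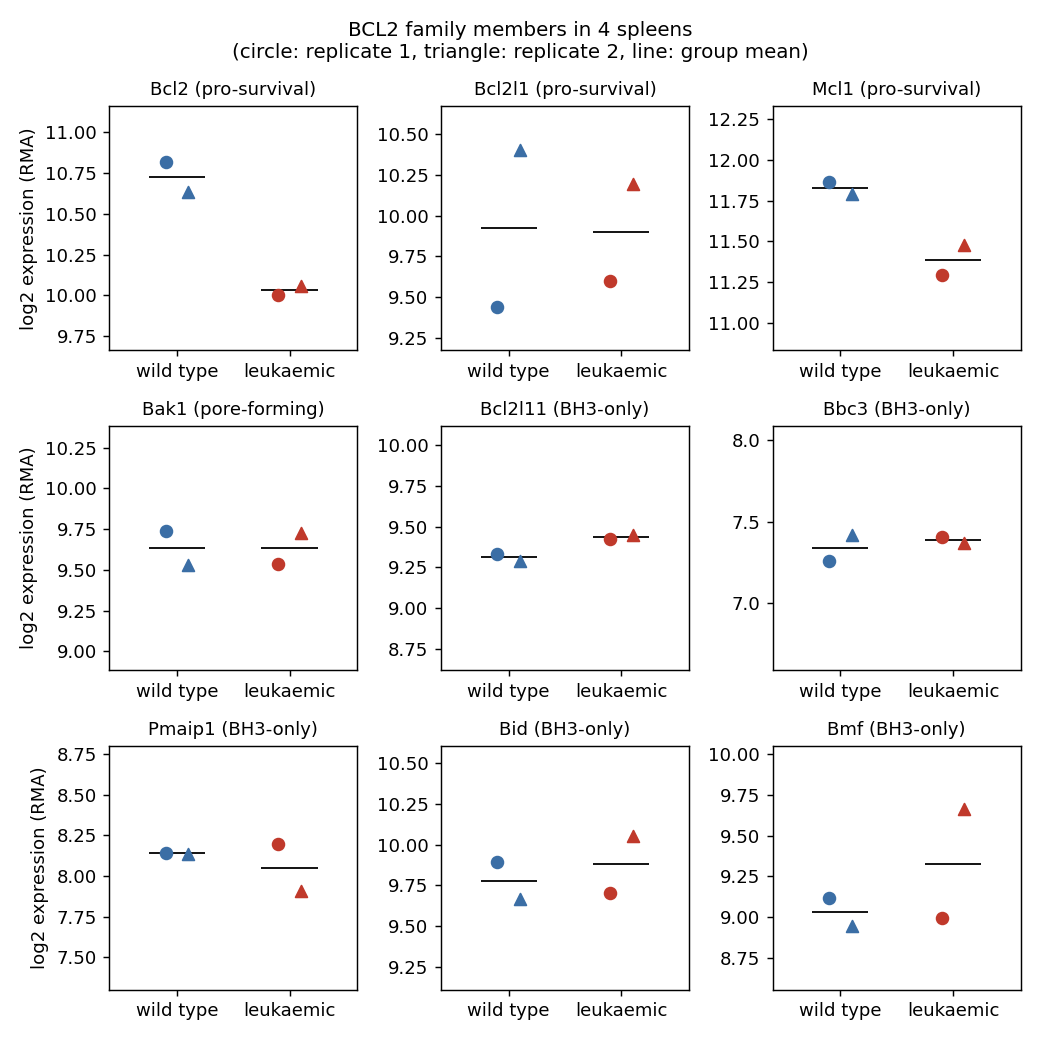
Log2 expression (RMA values, vertical axis, each panel spanning the same range of 1.5) of the 9 members in wild type (blue) and leukaemic (red) spleens, 1 point per mouse, with the line at the group mean. For Bcl2 and Mcl1 both red points lie below both blue ones, and for Bcl2l1 the points of replicate 2 lie above those of replicate 1 in both groups.

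The bases just before the RefSeq transcription starts of these 3 genes are shown because they are the members whose groups did not overlap. Each run is 250 bases, 5′ to 3′ on the gene's strand, from assembly GRCm38.p6. Capitals mark every match, on either strand, to 5 motifs: TGGGAA (the core bound by RBP-J), GTAAACA (FOXO factors), TTCNNNGAA (STAT factors), CAGGTG (the E-box of E2A) and GGGCGG (the GC box). Bcl2 lies at chr1:106714291-106714540 on the minus strand, Mcl1 at chr3:95658471-95658720 on the plus strand, and the first of 2 listed starts of Bcl2l11 at chr2:128125788-128126037 on the plus strand.
Bcl2: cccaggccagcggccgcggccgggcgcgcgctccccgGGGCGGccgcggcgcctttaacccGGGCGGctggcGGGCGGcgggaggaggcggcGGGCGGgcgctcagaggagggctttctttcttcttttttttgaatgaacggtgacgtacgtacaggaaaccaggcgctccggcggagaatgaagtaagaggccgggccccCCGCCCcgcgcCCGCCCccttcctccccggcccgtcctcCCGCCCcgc
Mcl1: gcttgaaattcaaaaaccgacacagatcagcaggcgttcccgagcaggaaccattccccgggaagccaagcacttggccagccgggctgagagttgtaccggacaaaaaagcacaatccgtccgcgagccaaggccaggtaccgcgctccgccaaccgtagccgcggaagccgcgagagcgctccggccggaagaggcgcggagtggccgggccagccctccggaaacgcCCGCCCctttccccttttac
Bcl2l11: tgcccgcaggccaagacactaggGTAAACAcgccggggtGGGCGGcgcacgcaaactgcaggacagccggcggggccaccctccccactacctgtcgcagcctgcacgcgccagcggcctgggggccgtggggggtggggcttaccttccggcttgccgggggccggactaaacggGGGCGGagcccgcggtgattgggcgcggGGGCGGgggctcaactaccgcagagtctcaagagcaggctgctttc
All capitals in Bcl2 (7 matches) and Mcl1 (1 match) are GC boxes. Bcl2l11, a known target of FOXO factors, holds 1 FOXO match and 3 GC boxes. GC content was 74.8% for Bcl2, 64.4% for Mcl1 and 72.0% for Bcl2l11, against a median of 52.4% over 32851 such windows. RefSeq windows were matched for 8 of the 9 members, with 15 starts. Of these 15 windows, 1 held the RBP-J core (Bmf), against 21.6% of all windows, and 2 held the FOXO motif (Bbc3 and Bcl2l11), against 3.17%. The GC box stood in 8 of the 15, against 32.7%, the E2A E-box in 1 (Bbc3), against 17.2%, and the STAT motif in 0, against 7.02%. A match describes these letters only.

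Bcl2, the founding pro-survival gene, stood at 10.82 and 10.63 in wild type replicates 1 and 2 against 10.003 and 10.06 in leukaemic replicates 1 and 2. Both leukaemic values lay below both wild type values, and the leukaemic pair was the tighter one. The difference was -0.70 (SE 0.14, 95% interval -1.04 to -0.36), or 1.62-fold lower in leukaemic spleen, and limma's adjusted p was 0.059. A larger difference in either direction was seen in 6.98% of all genes. Bcl2 was called lower in 3 of 14 alternative fits. These had an intensity trend in limma's variance prior, a robust prior, or the replicate number as a block (adjusted p = 0.046, 0.037 and 0.026). In the other 11 it was not called, as against a minimum 1.2-fold change (limma adjusted p = 0.24). Leaving out each mouse in turn gave differences from -0.79 to -0.60. The marker means of mature B cells and of T cells were lower in the same spleens, by the levels given above, and their part in the Bcl2 difference was not tested.

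Mcl1 encodes a short-lived pro-survival protein that lymphocytes and their precursors need. It stood at 11.87 and 11.79 in the wild type mice against 11.29 and 11.48 in leukaemic replicates 1 and 2. The groups did not overlap, with leukaemic replicate 1 the lower of its pair. The difference of -0.44 (SE 0.14, 95% interval -0.78 to -0.10) did not pass the test (limma adjusted p = 0.15). Leaving out each mouse in turn gave -0.53 to -0.35.

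Bcl2l1, whose main product BCL-XL protects precursor B cells and red cell precursors, varied more between mice of a group than between groups. It stood at 9.44 and 10.40 in the wild type mice against 9.60 and 10.20 in leukaemic replicates 1 and 2. In each group replicate 2 was the higher, by 0.96 in wild type and 0.60 in leukaemic spleen. The group difference was -0.02 (SE 0.33, 95% interval -0.82 to 0.77; limma adjusted p = 0.99), so a change of up to 1.76-fold lies inside the interval. Erythroid marker means (4 genes) were 11.65 and 12.09 in the wild type mice against 11.40 and 11.34 in the leukaemic mice; wild type replicate 2 was the higher of its pair for both Bcl2l1 and these markers, and the leukaemic pair was not ordered alike. Whether this, or the pancreas RNA of wild type replicate 2, bears on Bcl2l1 was not tested; without that mouse the difference was 0.46 (limma adjusted p = 0.53).

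Bak1, the pore-former measured here, showed the smallest difference of the 9. It stood at 9.74 and 9.53 in the wild type mice against 9.54 and 9.73 in the leukaemic mice, so that the groups overlapped over nearly their whole range. The difference of -0.00062 had a 95% interval of -0.37 to 0.37 (SE 0.15, limma adjusted p = 0.999), which leaves room for a change of up to 1.29-fold in either direction.

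Among BH3-only genes, Bcl2l11 encodes BIM, which removes unwanted lymphocytes and binds all main pro-survival proteins. It stood at 9.33 and 9.29 in the wild type mice against 9.42 and 9.45 in the leukaemic mice. Both leukaemic values lay above both wild type values, by a small margin: the difference was 0.12 (SE 0.13, 95% interval -0.19 to 0.44; limma adjusted p = 0.71).

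Bmf, a BH3-only gene whose product is tethered to the cytoskeleton in healthy cells, had the highest estimate. It stood at 9.12 and 8.95 in the wild type mice against 8.99 and 9.66 in leukaemic replicates 1 and 2. Only leukaemic replicate 2 stood above the wild type mice, while replicate 1 lay between them. The difference was 0.30 (SE 0.23, limma adjusted p = 0.57), and without leukaemic replicate 2 it was -0.04.

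Bid, which links death receptors to the mitochondria once caspase-8 has cut it, stood at 9.89 and 9.67 in the wild type mice against 9.71 and 10.05 in leukaemic replicates 1 and 2. Leukaemic replicate 2 was again the highest of the 4 mice. The difference was 0.10 (SE 0.17, limma adjusted p = 0.85), and it was -0.07 without leukaemic replicate 2 and -0.01 without wild type replicate 2.

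Bbc3 (PUMA) and Pmaip1 (NOXA) are best known as p53 targets. Bbc3 stood at 7.26 and 7.42 in the wild type mice against 7.41 and 7.37 in the leukaemic mice, a difference of 0.05 (SE 0.14, 95% interval -0.28 to 0.39; limma adjusted p = 0.91). Pmaip1 read 8.14 in both wild type mice and 8.19 and 7.91 in leukaemic replicates 1 and 2, a difference of -0.09 (SE 0.15, 95% interval -0.46 to 0.28; limma adjusted p = 0.85). The leukaemic values of both genes bracketed or lay within the wild type ones.

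**Figure D2:**
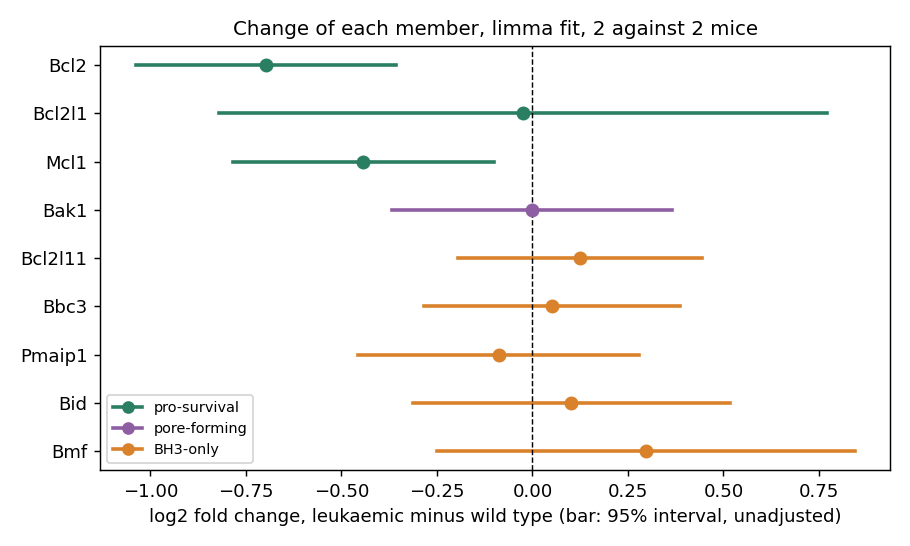
Log2 fold change of each member, leukaemic minus wild type, from the limma fit (points) with unadjusted 95% intervals (bars), coloured by role. The intervals of Bcl2 and Mcl1 lie below 0, those of the other 7 members include 0, and that of Bcl2l1 is the widest.

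Set side by side, the 3 pro-survival members had a median difference of -0.44 and the 6 pro-death members one of 0.08, with -0.03 over all genes. All 3 pro-survival estimates were below 0, with Bcl2l1 almost at 0, and 4 of 6 pro-death estimates were above 0. The gap between both medians was -0.52. Each leukaemic mouse set against each wild type mouse gave a gap between -0.68 and -0.49. The pro-survival median lay between -0.63 and -0.31 in these 4 pairings, and the pro-death median between -0.04 and 0.18. With means in place of medians, the pro-survival members stood at -0.39 and the pro-death members at 0.08. Because a median of 3 genes follows its middle gene, here Mcl1, and the 4 pairings share mice, these values describe the arrays and carry no test.

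**Figure D3:**
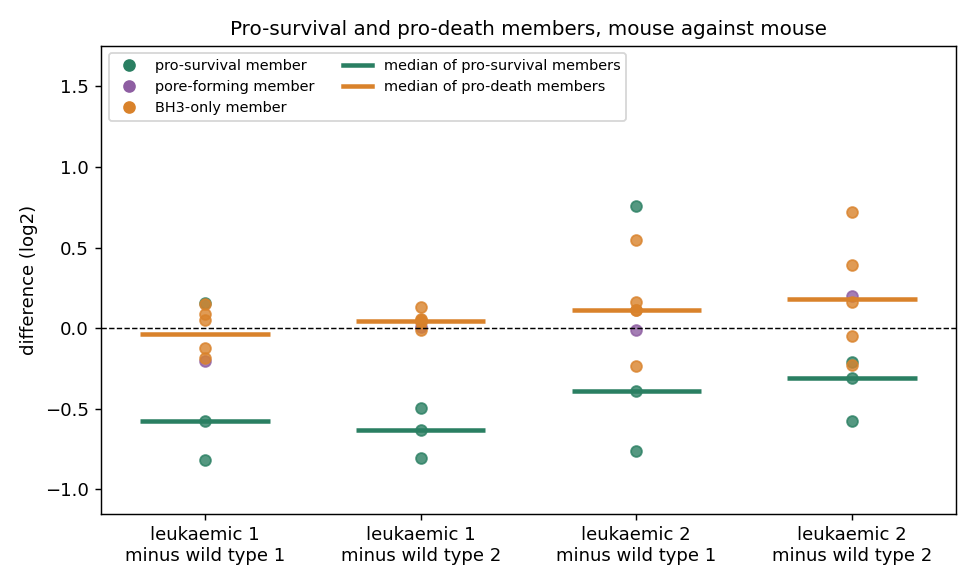
Difference in log2 expression for each leukaemic mouse minus each wild type mouse (4 pairings on the horizontal axis), with a point per member and a bar at the median of the 3 pro-survival (green) and 6 pro-death (orange) members. The green bar lies below the orange bar in all 4 pairings, by 0.49 to 0.68.

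The remaining genes of the death pathway were read from 7 lists, with 72 of 82 genes measured. Of these 72, 1 fell and 0 rose (1.39% called, against 2.46% of all genes), while 19, or 26.4%, had an unadjusted limma p under 0.05, against 20.7% of all genes. That gene was Tnf, the death receptor ligand and inflammatory cytokine: it stood at 9.36 and 9.18 in the wild type mice against 8.02 and 8.26 in the leukaemic mice, a 2.19-fold lower level (log2 difference -1.13, SE 0.16; limma adjusted p = 0.026). The call ended without wild type replicate 1 (-1.04, adjusted p = 0.15), without wild type replicate 2 (-1.23, adjusted p = 0.15) and against a minimum change of 1.2-fold (adjusted p = 0.060). Marker means of macrophages (7 genes) were 11.13 to 11.39 in wild type and 10.67 to 10.73 in leukaemic spleen, those of dendritic cells (7 genes) 8.71 to 8.92 and 7.59 to 7.72, those of NK cells (6 genes) 8.24 to 8.57 and 6.84 to 7.40, and those of neutrophils (7 genes) 11.21 to 11.24 and 9.85 to 10.52. These and the T cell and mature B cell means given above were lower in the same spleens as Tnf, and their part was not tested. Among single markers, Klrb1c (NK) differed by 0.29, while the other 5 NK markers had differences below 0. Of the 7 macrophage markers, 0 were called (all genes, 2.46%).

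Among the other BCL2 proteins, 0 of 3 measured pro-survival genes and 0 of 4 pro-death genes passed. Bcl2a1c, a copy of the A1 gene whose near-identical relatives may share its probes, stood at 9.30 and 8.55 in the wild type mice against 8.33 and 8.58 in the leukaemic mice. Bcl2l10 was dim: it read 4.87 to 5.18 on the 4 arrays, at percentile 7.2 of the level of all genes, and the filter on dim genes removed it. It differed by -0.13 (SE 0.16, limma adjusted p = 0.75), and by 0.01 without wild type replicate 2. Bok, a relative of the pore-formers, stood at 8.77 and 8.64 in the wild type mice against 9.31 and 8.93 in the leukaemic mice, a difference of 0.41 (SE 0.17, limma adjusted p = 0.24). Bik, a BH3-only gene, differed by -0.24 (SE 0.15, limma adjusted p = 0.45). Groups did not overlap for Bok and Bik, 2 of the 4 genes of that list or 50%, against 49.2% of all genes. In the list of BCL2-related and mitophagy genes 0 of 8 passed: Bcl2l14 differed by -0.48 (SE 0.18) and Bcl2l12 by 0.32 (SE 0.17), with limma adjusted p of 0.19 and 0.36.

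Genes of mitochondrial release and the apoptosome lay mostly above wild type without passing singly; beside factors that act after the pore, the list holds the channel genes Vdac1, Vdac2 and Vdac3 and the mitochondrial fusion and fission genes Opa1 and Dnm1l. Of its 12 genes, 0 passed, and 6 had an unadjusted limma p under 0.05, as did 20.7% of all genes. Casp9 was among these 6 but was lower in leukaemic spleen (-0.37, limma adjusted p = 0.23). Of the 12 estimates, 3 were below 0. In this list 9 genes had both leukaemic values above both wild type values, as did 23.0% of all genes. The median difference of the 12 genes was 0.35, against -0.03 over all genes. Apaf1, the scaffold of the apoptosome, stood at 9.63 and 9.72 in the wild type mice against 10.55 and 10.33 in the leukaemic mice. Its difference was 0.76 (SE 0.15, limma adjusted p = 0.052), and it was called higher under 6 of 14 alternatives, among them arrays centred on their medians (0.83, adjusted p = 0.043). Aifm1, a mitochondrial flavoprotein that also moves to the nucleus in dying cells, differed by 0.70 (SE 0.15, limma adjusted p = 0.064) and was called with the robust prior (adjusted p = 0.042).

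Caspases and their inhibitors had a median of 0.03, and 0 of 13 measured genes passed. Casp6, an executioner caspase, stood at 9.77 and 9.45 in the wild type mice against 9.15 in each leukaemic mouse, a difference of -0.46 (SE 0.16, limma adjusted p = 0.17). Casp4, an inflammatory caspase, differed by -0.70 (SE 0.30, limma adjusted p = 0.24), and its wild type values lay 0.97 apart: the difference was -0.22 without wild type replicate 1 and -1.19 without wild type replicate 2. In the death receptor list, which holds Tnf, 1 of 11 genes passed, or 9.09% against 2.46% of all genes, and the median was -0.27. With the robust prior 2 of these 11 were called lower, as were 473 of all 19297 genes. Of 21 measured regulators of the family 0 passed, and the median was 0.07. Pim2, a kinase that blunts the BH3-only protein BAD, stood at 9.97 and 9.89 in the wild type mice against 9.08 and 9.41 in the leukaemic mice, a difference of -0.68 (SE 0.16, limma adjusted p = 0.076). Myc, which drives growth and also sensitises cells to death, stood at 10.76 and 10.75 in the wild type mice against 11.45 and 11.14 in the leukaemic mice, a difference of 0.54 (SE 0.16, limma adjusted p = 0.12).

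**Figure D4:**
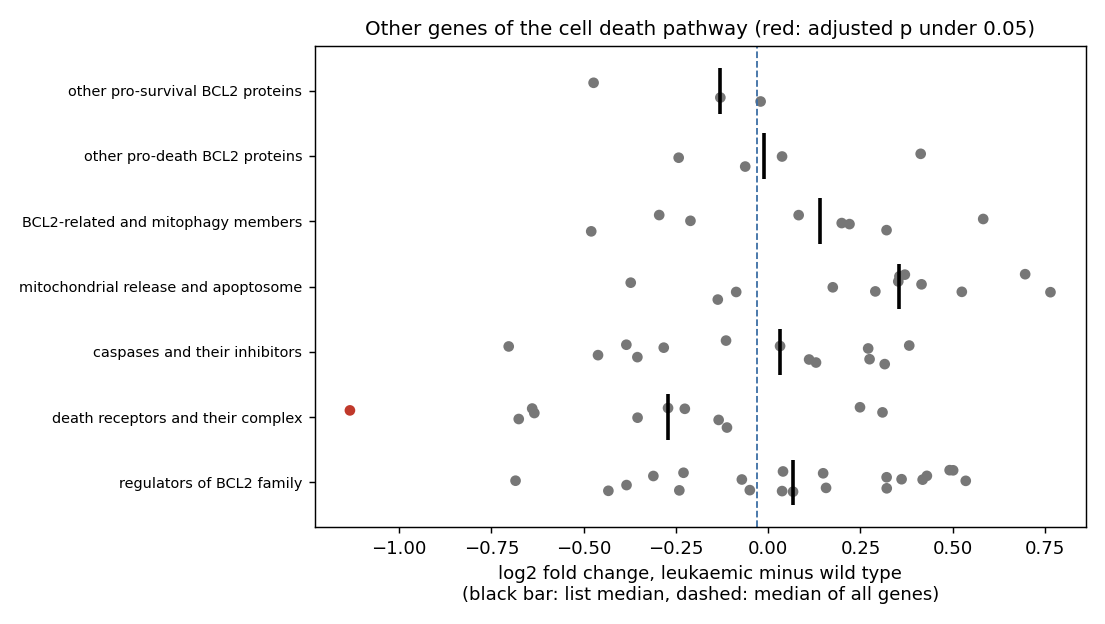
Log2 fold change, leukaemic minus wild type, of 72 further genes in 7 lists of the death pathway (a point per gene, scattered vertically for clarity), with a black bar at each list's median and a dashed line at the median of all genes, -0.03. Tnf is the one red point, and the median of mitochondrial release and apoptosome genes stands at 0.35.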

How the data were processed

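Total RNA of whole spleen was hybridised to Affymetrix whole-transcript arrays, 1 per mouse, and groups were taken from sample titles. The authors deposited log2 expression values; RMA, R 2.15.0 and limma 3.12.1 are named in the submitters' processing notes, without settings. RMA makes array distributions alike, so differences are relative to the other genes. Array medians were 7.96 to 8.03. Detection calls were not analysed here.

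Of 23309 probe sets, 20729 carried 1 gene symbol, giving 19297 genes (highest mean over the 4 arrays where several). The group difference was fitted by lmFit and eBayes of limma 3.58.1 (R 4.3.3, no covariate) with Benjamini-Hochberg adjustment. On simulated data the fit recovered 0% of genes changed by 0.5 log2, 36% of those changed by 1 and 98% by 2. Of its 126 calls there, 9 were false. Standard errors and intervals are those of the moderated fit. Members, lists and the rule for named genes (all members, called list genes, or else the 2 of smallest p in a list) were chosen with earlier results of these data known. Dntt, Il7r, Cd79a, Klrb1c and Casp9 are given with values outside that rule. Alternatives covered scaling, a filter on dim genes, the variance prior, probe set choice, all probe sets in the fit, a replicate block, a minimum 1.2-fold change and each mouse left out. Names were checked against a RefSeq gene table, and promoter windows come from RefSeq (GRCm38.p6), scanned with Python 3.11.15.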

Additional observations from a re-analysis of the deposited data

How the results depend on the processing

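With 2 mice a group, the spread rests on 2 residual degrees of freedom, and whether dim probe sets lie above background was not tested. The sample titles give same-numbered replicates a shared number and no other link. The correlation of their deviations from group means was -0.089, which with 2 mice a group cannot exclude a pairing. With the number as a replicate block limma called 785 genes higher, 908 lower and 1 member lower, Bcl2 (adjusted p = 0.026); it also called Apaf1 (0.015) and Aifm1 (0.025) higher, Pim2 (0.032) lower, and 3 death receptor genes lower. With a robust prior it called 501 higher, 473 lower and 1 member lower, and with an intensity trend 1 member lower, Bcl2 in both. Quantile normalization gave 168 higher and 93 lower, and a minimum 1.2-fold change 97 and 26, against 276 and 199. Centring on array medians called 70.4% of changed genes higher, quantile normalization 64.4% and a minimum fold change 78.9%, against 58.1%. The share was 51.4% with the robust prior, 46.4% with the block, 31.6% without wild type replicate 1 and 43.1% without leukaemic replicate 2. Leaving out each mouse gave 0 to 450 genes higher, 0 to 593 lower, and 0 members called; without wild type replicate 2 limma called 0 genes, with 3142 at an unadjusted p under 0.05. The pro-survival minus pro-death gap then ran from -0.63 to -0.47. The sign of some differences turned, none of them called. After centring, Bcl2l1 was at 0.040 and Bak1 at 0.064. Over the fits without a mouse, Bcl2l1 ran from -0.51 to 0.46, Bak1 from -0.11 to 0.10, Bbc3 from -0.029 to 0.13, Pmaip1 from -0.23 to 0.055, Bid from -0.072 to 0.28, Bmf from -0.039 to 0.63 and Bcl2l10 from -0.27 to 0.014. Without one mouse or another, Casp4 ran from -1.19 to -0.22, Bok from 0.22 to 0.61, Bik from -0.37 to -0.12 and Bcl2l12 from 0.16 to 0.48. The cause was not tested. Bcl2, Mcl1 and Bcl2l11 kept their sign in all 14 alternatives, which the groups' lack of overlap fixes for the fits without a mouse. Each member had 1 probe set, so the choice of probe set could not alter its values.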
